A study of Zea mays with 12 samples.

Results

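Leaf transcripts of 2 maize inbred lines grown in the same acid soil were compared, as the 3 arrays of the aluminium-sensitive line S1587-17 minus the 3 arrays of the aluminium-tolerant line Cat100-6. These 6 arrays, chosen by their titles, are 6 of the 12 arrays of the series. The study grew seedlings of both lines for 3 days in an acid latosol of pH 4.1 that held soluble aluminium, or in a control made from it by liming to pH 5.5, and hybridised leaf RNA to the Affymetrix Maize Genome Array, on which sets of short probes report each transcript. The groups were S1587-17 in acid soil, Cat100-6 in acid soil, S1587-17 in control soil and Cat100-6 in control soil, with 3 arrays each. All seedlings were germinated on moist paper before transfer, both soils received the same mineral fertiliser, and the acid soil also received calcium chloride. The arrays are named as biological replicates, with nothing in the labels on whether each had its own bag of plants, and the p-values measure only the spread among these samples. Each line is a single inbred genotype, so a difference between lines is not a difference between tolerant and sensitive maize in general.

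In acid soils aluminium ions dissolve and damage root tips, which limits the uptake of water and nutrients. Tolerant maize is known for the release of organic acids from the root, which bind aluminium outside the cell. Leaves do not meet the soil directly, so leaf transcripts report on the shoot of a plant whose root is exposed. Each line also carries its own alleles, so a different transcript level and a different fit of the probes to an allele cannot be told apart at a single probe set. In whole leaves, fewer cells of a type and less RNA per cell cannot be told apart either.

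The S1587-17 acid soil arrays correlated with each other at 0.997 across probe sets, and the Cat100-6 acid soil arrays at 0.985 to 0.996. The median SD between arrays was 0.10 and 0.16 log2 units in these 2 groups. S1587-17 control soil replicate 3 stood apart, with correlations of 0.963 to 0.967 to its group, and it bears on the acid soil test only through the shared estimate of the spread. S1587-17 control soil replicates 1 and 2 correlated at 0.995 with each other and at 0.995 to 0.997 with the S1587-17 acid soil arrays. With Cat100-6 control soil, replicate 3 correlated at 0.950 to 0.953, and replicates 1 and 2 at 0.902 to 0.914. The control soil and between-soil results rest on these arrays. The level of the spiked hybridization controls was 10.47 ± 0.04 log2 units for S1587-17 acid soil, against 9.98 ± 0.30 for Cat100-6 acid soil (SD, 3 arrays each). The excess of 3′ over 5′ probe sets of maize control genes averaged 0.43 ± 0.12 in S1587-17 acid soil and 0.94 ± 0.06 in Cat100-6 acid soil. The same excess of the spiked dap control, which is no plant RNA, averaged 1.35 ± 0.07 in S1587-17 acid soil and 2.33 ± 0.08 in Cat100-6 acid soil, and the part of these gaps in the results was not tested. Leaf genes marked both groups as leaf: the 15 probe sets of mesophyll-preferential genes had a median of 13.15 log2 units in both, and root-preferential genes had array means of 5.14 to 5.38 in S1587-17 acid soil and 4.81 to 4.93 in Cat100-6 acid soil.

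In acid soil, the lines differed at 4223 of 17621 probe sets (adjusted p under 0.05 in limma, Benjamini-Hochberg), which is 24% of those tested. Of these, 1875 were higher and 2348 lower in S1587-17, or 10.6% and 13.3% of all probe sets. With a minimum of 1 log2 unit, 576 were higher (3.27%) and 645 lower (3.66%). The arrays of one line all lay above those of the other at 45.5% of all probe sets. The median difference was 0.02 log2 units. When the arrays were instead scaled on their hybridization controls, that median moved to -0.46, and 525 probe sets were called higher and 7493 lower. The split between higher and lower therefore depends on the scaling. Counts of gene lists under the hybridization control scaling, given below, are to be read against those 525 and 7493 of 17621 probe sets. This scaling moves every difference down by the same amount, so positive differences below about 0.5 log2 units turn negative and have no fixed direction. A gene name was given to 1452 probe sets of 1108 genes, and 122 of these genes were higher and 143 lower at their brightest probe set.

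The genes with the highest values in S1587-17 relative to Cat100-6 included an antenna protein, a water channel, a histone and detoxification enzymes. Lhcb5-2 (LOC542320), which encodes the minor light-harvesting protein CP26 of photosystem II, had 13.46, 13.50 and 13.45 log2 units in S1587-17 acid soil, against 8.27, 8.24 and 8.28 in Cat100-6 acid soil. The groups lay far apart with almost no spread, a difference of 5.21 ± 0.10 (SE, limma adjusted p = 6.54e-11), or 36.9-fold. A second CP26 gene, lhcb5 (LOC542716), had 13.84, 13.86 and 13.75 in S1587-17 acid soil and 13.94, 13.88 and 13.99 in Cat100-6 acid soil, a difference of -0.12 ± 0.08 that did not pass (adjusted p = 0.350).

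The plasma membrane aquaporin gene ZmPIP2-2 (LOC542644) had 7.65, 7.67 and 7.83 in S1587-17 acid soil, against 3.46, 3.64 and 3.56 in Cat100-6 acid soil, a difference of 4.16 ± 0.22 (adjusted p = 1.70e-07). The histone H2B gene his2b5 (LOC542301) had 10.17, 10.36 and 10.50 in S1587-17 acid soil, against 6.22, 6.92 and 6.59 in Cat100-6 acid soil, 13.6-fold (adjusted p = 0.00136). The glutathione transferase gene gst42 (LOC541850) had 9.41, 9.49 and 9.74 in S1587-17 acid soil, against 5.59, 6.21 and 5.67 in Cat100-6 acid soil, 13.2-fold (adjusted p = 0.000170). In each of these 3 genes every S1587-17 array was above every Cat100-6 array by more than 3 log2 units. Of the other genes among the 15 highest, pr5, a thaumatin-like pathogenesis-related protein, was 8.45-fold higher, and xet1, a xyloglucan endotransglycosylase that remodels the wall, 8.08-fold higher. The Cat100-6 acid soil arrays of both were widely spread, at 5.68, 4.23 and 6.07 for pr5 and at 5.66, 4.12 and 6.65 for xet1.

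Others among the 15 highest were pDCT1 (3.16 ± 0.22) and the MADS-box genes m20 (2.97 ± 0.31) and zmm19 (2.95 ± 0.32). The cyclotide gene, for a small cyclic peptide, had 13.15, 13.19 and 13.25 in S1587-17 acid soil, against 11.38, 10.74 and 10.98 in Cat100-6 acid soil, 4.47-fold higher (adjusted p = 1.98e-05).

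Among the genes lowest in S1587-17 were enzymes of fermentation, porphyrin synthesis, the glyoxylate cycle and peroxide breakdown. pdc2 (LOC542651), a pyruvate decarboxylase, which opens ethanol fermentation, had 3.77, 4.02 and 3.53 in S1587-17 acid soil, against 8.97, 8.33 and 9.21 in Cat100-6 acid soil, a difference of -5.07 ± 0.21 (adjusted p = 2.17e-08). prpo1 (LOC542554), a protoporphyrinogen oxidase of chlorophyll and haem synthesis, had 7.71, 6.57 and 7.18 in S1587-17 acid soil, against 10.92, 10.47 and 11.15 in Cat100-6 acid soil, a difference of -3.69 ± 0.29 (adjusted p = 3.74e-06). mas1 (LOC542252), malate synthase, had 6.19, 6.22 and 6.11 in S1587-17 acid soil, against 9.16, 8.50 and 9.17 in Cat100-6 acid soil, a difference of -2.77 ± 0.20 (adjusted p = 2.42e-06). None of the 3 overlapped between lines, which the choice of these genes required. The 15 lowest also held cat2, a catalase (-2.24), sus2, a sucrose synthase (-2.18), cc7, a cystatin that inhibits cysteine proteases (-2.02), and mlg3 (-2.44). The S1587-17 acid soil arrays of mlg3 were spread widely, at 4.80, 6.15 and 7.77, against 8.96, 8.51 and 8.55 in Cat100-6 acid soil. The mlg3 difference was -3.20 without S1587-17 acid soil replicate 3 and -1.71 without S1587-17 acid soil replicate 1, and its call was lost without Cat100-6 acid soil replicate 1 (adjusted p = 0.051).

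**Figure D1:**
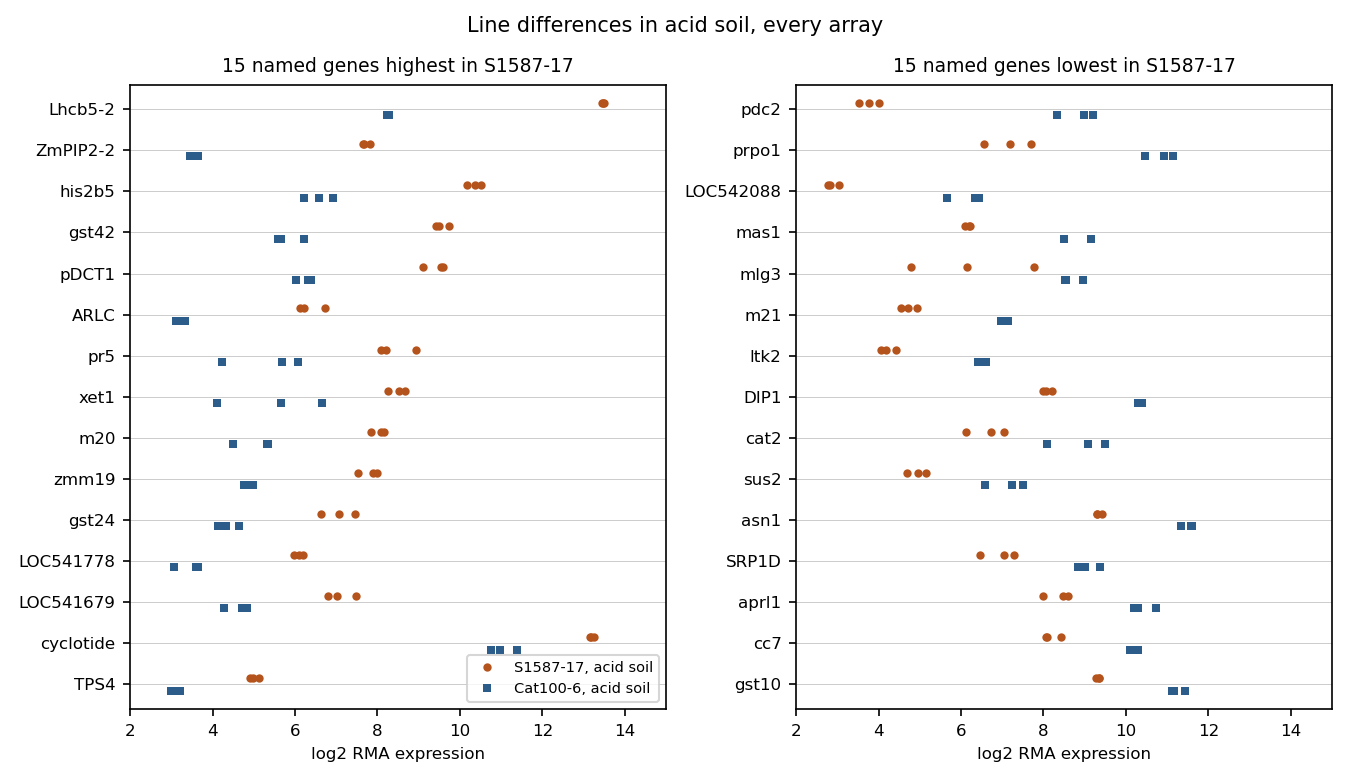
Log2 RMA expression in acid soil (horizontal) of the 15 named genes highest (left) and the 15 lowest (right) in S1587-17 relative to Cat100-6, each at its brightest probe set, with circles for the 3 S1587-17 arrays and squares for the 3 Cat100-6 arrays. The lines do not overlap in any of these genes, which the choice of genes required, and Lhcb5-2 sits at 13.45 to 13.50 in S1587-17 and 8.24 to 8.28 in Cat100-6.

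Different probe sets of 1 gene did not always give the same answer. Of 222 named genes with several probe sets, 93 had at least 1 that passed, 11 had all passing in the same direction and 8 had probe sets called in opposite directions. The histone H1 gene his1 (LOC542385) held the most extreme case. At 1 probe set it had 3.53, 3.30 and 3.09 in S1587-17 acid soil, against 11.65, 12.07 and 11.74 in Cat100-6 acid soil, a difference of -8.52 ± 0.18 (adjusted p = 1.74e-10). At another of its probe sets the values were 10.18, 10.52 and 10.48 in S1587-17 acid soil and 9.97, 10.32 and 9.99 in Cat100-6 acid soil, a difference of 0.30 that did not pass (adjusted p = 0.296). Of the 6 his1 probe sets, 3 were lower, by 8.52, 6.80 and 0.29, and 3 did not pass. The smallest of these calls was lost in 9 of 12 single-array omissions.

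The glutathione transferase gene gst13 (LOC541831) showed the same split. One probe set had 9.83, 9.94 and 9.92 in S1587-17 acid soil, against 3.40, 3.25 and 3.33 in Cat100-6 acid soil, a difference of 6.57 ± 0.43 (adjusted p = 1.01e-06). The other had 9.66, 9.57 and 9.55 in S1587-17 acid soil, against 9.37, 10.02 and 9.39 in Cat100-6 acid soil, and did not pass. For pdc2, 2 of 4 probe sets were lower (-5.07 and -2.05), 1 was higher (1.31) and 1 did not pass. The plasma membrane aquaporin gene ZmPIP2-3 was higher by 1.88 ± 0.18 at its brightest probe set and lower by 1.21 ± 0.24 at another. The other genes with opposing calls were MTK-1, PLTP, gz27, tub5, sdg110 and pdi3. The genes described in these paragraphs on several probe sets were picked after their values were seen.

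Aquaporins, the channels through which water crosses membranes, were higher in S1587-17 at 13 of 38 probe sets and lower at 3, a call rate of 42.1%, against 24% of all probe sets. Their median difference was 0.25 log2 units. Under the hybridization control scaling the counts were 6 higher and 10 lower, with a median of -0.23, against -0.46 for all probe sets. The plasma membrane channels ZmPIP2-5 (8.65 ± 0.09 in S1587-17 acid soil, 7.19 ± 0.15 in Cat100-6 acid soil; SD over 3 arrays) and ZmPIP1-3 (11.72 ± 0.10 in S1587-17 acid soil, 10.99 ± 0.10 in Cat100-6 acid soil) were higher, ZmPIP1-3 at 4 of its 5 probe sets, and the fifth, dim, did not pass. The ZmPIP1-3 call was lost under the hybridization control scaling (0.25, adjusted p = 0.245). The tonoplast channel TIP4-4 was higher by 1.05 ± 0.15, and TIP2-1 was lower by 1.00 ± 0.17. ZmNIP2-3, a nodulin-like channel, had 7.26, 7.28 and 6.87 in S1587-17 acid soil, against 5.18, 4.25 and 6.36 in Cat100-6 acid soil, a difference of 1.87 ± 0.49 (adjusted p = 0.0174) that was lost in 4 of 12 single-array omissions. ZmPIP2-1 was higher by 0.46 ± 0.09 at a single probe set, while its other one did not pass. The tonoplast gene TIP2-3 (1.13 ± 0.26) was higher, and ZmPIP1-1 was lower by 0.28 ± 0.08, a call lost in 5 of 12 omissions. Under the hybridization control scaling ZmPIP2-1 turned to -0.030 and did not pass. ZmPIP2-6 was higher in acid soil, by 0.71 ± 0.17, and lower in control soil, by 0.47, and the line gap differed between soils by 1.18 ± 0.25 (adjusted p = 0.0143). Under the hybridization control scaling neither the acid soil call of ZmPIP2-6 (0.22) nor that between soils (0.77) was kept, and leaving out S1587-17 acid soil replicate 2 or 3 ended the first. Among the 8 probe sets of root-preferential genes, the one that passed was that of ZmPIP2-5.

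Glutathione transferases, which join glutathione to reactive compounds, were split evenly: 8 of 35 probe sets were higher and 8 lower. That was a call rate of 45.7%, against 24% of all probe sets, with a median of 0.16. Under the hybridization control scaling 4 were higher and 14 lower. Besides gst42, gst24 had 7.46, 7.06 and 6.62 in S1587-17 acid soil, against 4.13, 4.33 and 4.64 in Cat100-6 acid soil, and was 6.40-fold higher. On the other side, gst10 had 9.27, 9.35 and 9.35 in S1587-17 acid soil, against 11.11, 11.43 and 11.17 in Cat100-6 acid soil, 3.78-fold lower (adjusted p = 3.32e-07). gst6 and gst2 were lower by 1.89 ± 0.13 and 1.63 ± 0.10. gst37 was higher by 0.74 ± 0.08 in acid soil and differed by 0.00 in control soil, with an adjusted p of 0.00489 for the difference between soils, and both calls were lost under the hybridization control scaling (0.26 in acid soil, 0.33 between soils). gst9 (0.99 ± 0.11, lost under that scaling) and gst19 (1.41 ± 0.37, lost without S1587-17 acid soil replicate 2) were also higher, and gst5 (-0.95 ± 0.12), gst18 (-1.10 ± 0.20) and gst30 (-0.90 ± 0.11) were lower.

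**Figure D2:**
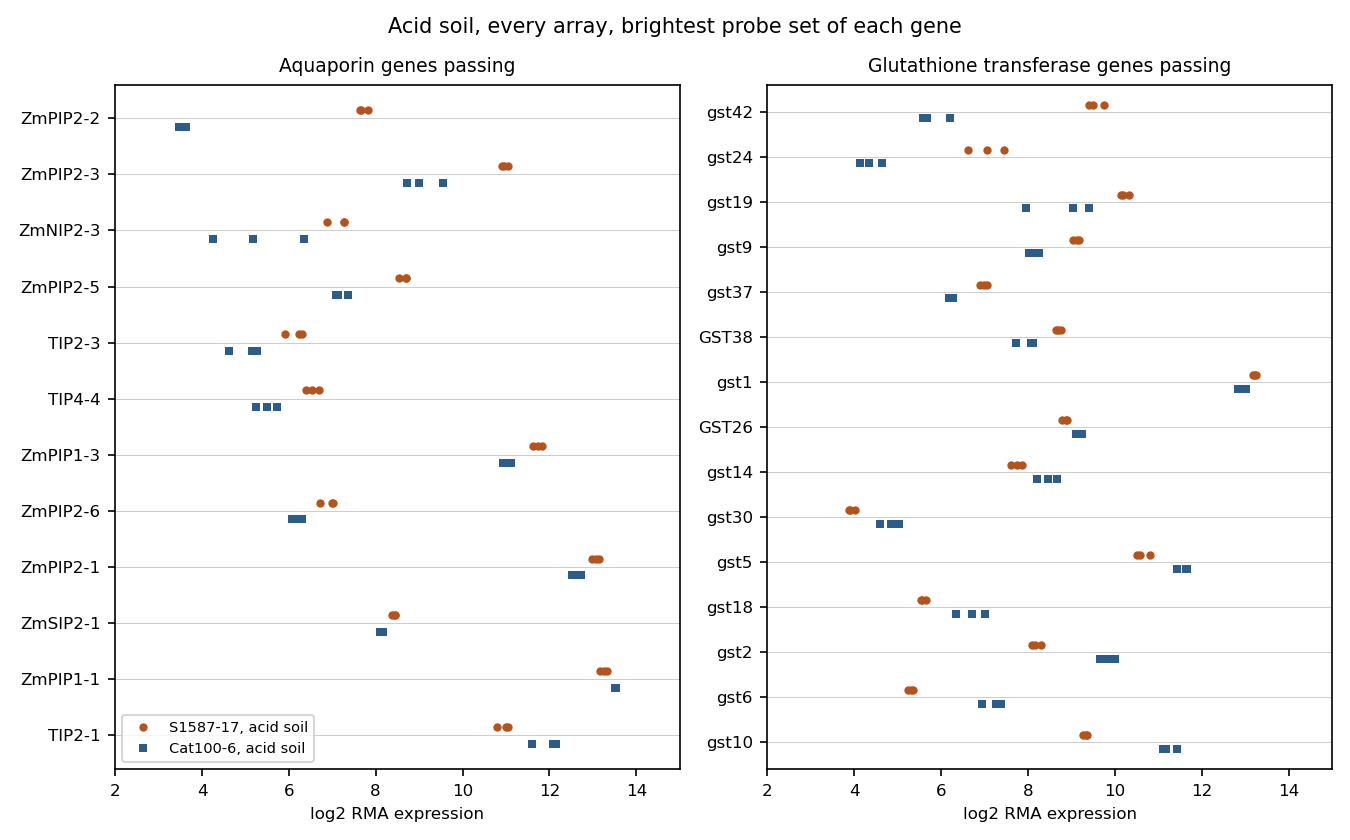
Log2 RMA expression in acid soil (horizontal) of the aquaporin genes (left) and glutathione transferase genes (right) that passed at their brightest probe set, ordered by difference, with circles for the 3 S1587-17 arrays and squares for the 3 Cat100-6 arrays. ZmPIP2-2 and gst42 lead their panels with differences of 4.16 and 3.73 log2 units, and gst10 has the lowest among the transferases at -1.92.

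Antioxidant enzymes were lower in S1587-17 at 7 of 24 probe sets and higher at 3, with a median of -0.02, or 41.7% called against 24% of all probe sets. Under the hybridization control scaling they were lower at 11 and higher at 0, where 7493 of all 17621 probe sets were lower and 525 higher. The mitochondrial alternative oxidase gene aox1 had 7.04, 6.98 and 7.09 in S1587-17 acid soil, against 8.72, 8.61 and 8.71 in Cat100-6 acid soil, a difference of -1.64 ± 0.11 (adjusted p = 1.30e-06). The catalase gene CAT3 was lower by 1.16 ± 0.21, the superoxide dismutase gene sod2 by 0.63 ± 0.14 and the iron storage gene fer1, a ferritin, by 0.58 ± 0.09. The other probe set of sod2 did not pass. The ascorbate peroxidase gene apx2 was higher by 0.50 ± 0.08, but not under the hybridization control scaling, where its call was lost.

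In nitrogen and sulfur assimilation, 3 of 26 probe sets were higher and 5 lower, 30.8% called against 24% of all probe sets, or 2 higher and 10 lower under the hybridization control scaling. asn1 (LOC542435), an asparagine synthetase that makes the main nitrogen transport compound, had 9.29, 9.31 and 9.43 in S1587-17 acid soil, against 11.57, 11.35 and 11.60 in Cat100-6 acid soil, a difference of -2.17 ± 0.26 (adjusted p = 0.000126). The sulfate reduction genes aprl1 (-2.06 ± 0.27) and sir, sulfite reductase (-0.97 ± 0.17), were lower. The glutamine synthetase genes gln5 (1.50 ± 0.20), gln2 (1.34 ± 0.27) and gln3 (0.60 ± 0.19) were higher, the gln3 call being lost in 7 of 12 single-array omissions and under the hybridization control scaling.

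Starch and sucrose genes were lower at 10 of 36 probe sets and higher at 1 (bt1, by 0.25), with a median of -0.15, against 13.3% lower and 10.6% higher among all probe sets, or lower at 23 and higher at 0 under the hybridization control scaling. GBSSIIa, a granule-bound starch synthase, had 6.86, 6.88 and 6.75 in S1587-17 acid soil, against 8.06, 7.99 and 8.13 in Cat100-6 acid soil, a difference of -1.23 ± 0.10 (adjusted p = 6.70e-06). agpsl1, a subunit of ADP-glucose pyrophosphorylase, was lower by 1.03 ± 0.19, the branching enzyme genes ae1 (LOC542238) and sbe1 by 0.92 ± 0.17 and 0.63 ± 0.13, the debranching enzyme gene iso3 by 0.91 ± 0.25 and the β-amylase gene BMY1 by 1.20 ± 0.30. The other probe set of ae1 (LOC542238) did not pass. The call was lost in 3 of 12 single-array omissions for BMY1, 5 for iso3 and 9 for bt1, and bt1 turned to -0.24 under the hybridization control scaling. The lower count was 5 without S1587-17 acid soil replicate 3 or without Cat100-6 acid soil replicate 1, 6 without S1587-17 acid soil replicate 1 or 2, and 13 without S1587-17 control soil replicate 3.

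In photosynthesis the shares called were below the 24% of all probe sets under the deposited scaling. Of 22 probe sets of photosystems and light harvesting, 2 were higher and 0 lower, and 1 of 15 probe sets of the C4 and Calvin cycles was lower (me2, an NADP-malic enzyme gene, by 0.40 ± 0.09). The second higher one was FDX6, a ferredoxin gene, by 0.73 ± 0.24 (adjusted p = 0.0459), a call lost in 8 of 12 single-array omissions and under the hybridization control scaling. Carotenoid, chlorophyll and isoprenoid genes were lower at 7 of 19 probe sets and higher at 1. Under the hybridization control scaling the photosystem list turned to 1 higher and 12 lower, the C4 list had 0 higher and 6 lower, and the carotenoid list 1 higher and 12 lower. Of all 17621 probe sets, 525 were higher and 7493 lower under that scaling. Besides prpo1, the lower ones included BCH2, a β-carotene hydroxylase (-1.29 ± 0.24), VTE5, of vitamin E synthesis (-1.06 ± 0.14), elm1, of phytochrome chromophore synthesis (-0.55 ± 0.13), and dxs1, which opens plastid isoprenoid synthesis (-0.75 ± 0.23, lost in 5 of 12 single-array omissions). The terpene synthase gene TPS4 was higher, with 5.12, 4.91 and 4.99 in S1587-17 acid soil, against 3.21, 2.98 and 3.12 in Cat100-6 acid soil (adjusted p = 8.70e-05).

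Of the wall and lignin genes, 3 of 41 probe sets were higher and 4 lower, 17.1% called against 24% of all probe sets, or 2 higher and 17 lower under the hybridization control scaling. That scaling called 525 of all 17621 probe sets higher and 7493 lower. BM1, a cinnamyl alcohol dehydrogenase that makes lignin precursors, had 9.53, 9.81 and 9.43 in S1587-17 acid soil, against 11.55, 11.06 and 11.73 in Cat100-6 acid soil, a difference of -1.86 ± 0.27 (adjusted p = 0.000457). The expansin gene expa2, which loosens walls, was higher by 1.74 ± 0.29, and another expansin gene, expA3, was lower by 1.09 ± 0.21. In flavonoid synthesis, fht1, flavanone 3-hydroxylase, had 10.38, 10.14 and 10.05 in S1587-17 acid soil, against 8.81, 7.76 and 9.85 in Cat100-6 acid soil, a difference of 1.38 ± 0.40 (adjusted p = 0.0277). Without Cat100-6 acid soil replicate 2 that difference was 0.86 and did not pass, and it was lost in 5 of 12 single-array omissions.

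Among defence genes, 4 of 19 probe sets were higher and 2 lower, 31.6% called against 24% of all probe sets, or 3 higher and 7 lower under the hybridization control scaling. The ribosome-inactivating protein gene rip2 was higher by 1.50 ± 0.42 (adjusted p = 0.0221, lost in 4 of 12 single-array omissions), and the proteinase inhibitor gene wip1 was lower by 0.78 ± 0.22 (lost in 4 of 12). bx6, an enzyme of benzoxazinoid defence compounds, had 11.71, 11.83 and 11.86 in S1587-17 acid soil, against 12.78, 12.96 and 12.69 in Cat100-6 acid soil, a difference of -1.01 ± 0.15 (adjusted p = 0.000602). A second probe set of bx6 was lower by 0.62 ± 0.15.

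Of 29 probe sets of MADS-box transcription factors, a list added after values were seen, 5 were higher and 4 lower, 31% called against 24% of all probe sets, or 3 higher and 9 lower under the hybridization control scaling. m20 had 7.84, 8.08 and 8.17 in S1587-17 acid soil, against 5.32, 5.36 and 4.50 in Cat100-6 acid soil, and m21 had 4.54, 4.93 and 4.70 in S1587-17 acid soil, against 6.98, 7.14 and 7.10 in Cat100-6 acid soil. Growth hormone genes had 3 of 32 probe sets higher and 3 lower, 18.8% called against 24% of all probe sets. Under the hybridization control scaling these genes had 0 higher and 12 lower. They included the cytokinin receptor gene hk2 (-0.77 ± 0.13) and its phosphotransfer partner HP3 (0.84 ± 0.18), whose call was lost under that scaling (0.36, adjusted p = 0.245). Of the 5 probe sets for aluminium, organic acids and phosphate, 1 passed, the phytase gene phytase1, lower by 0.89 ± 0.24 (adjusted p = 0.0184, lost in 4 of 12 single-array omissions). The phosphate transporter gene pht7 had 5.95, 5.91 and 6.17 in S1587-17 acid soil, against 5.34, 5.93 and 5.27 in Cat100-6 acid soil, and did not pass. Potassium, iron and other metal genes had 0 of 19 probe sets higher and 2 lower, and DNA replication and cell cycle genes had 1 of 22 higher and 1 lower, shares below the 24% of all probe sets. Seed-preferential genes had 3 of 32 higher and 4 lower, and bundle-sheath-preferential genes had 0 of 3 called.

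**Figure D3:**
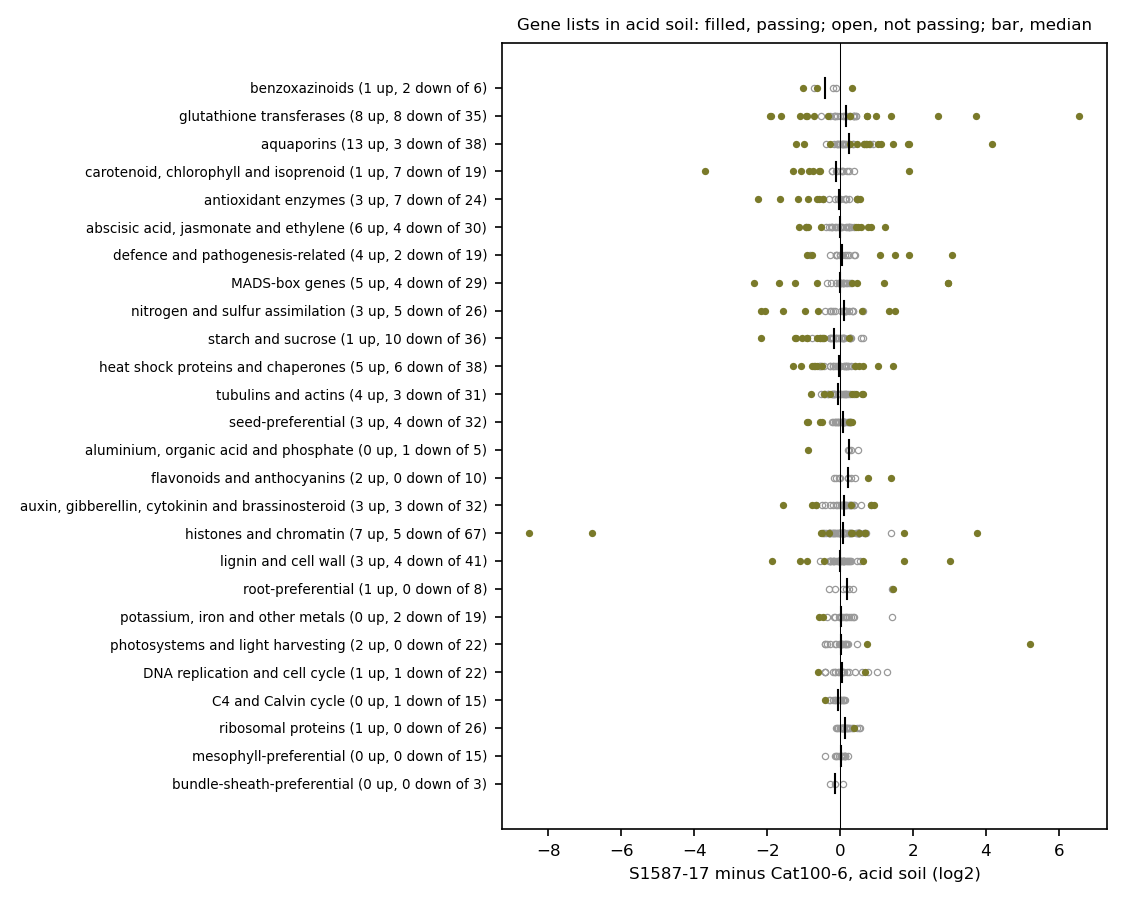
Log2 difference, S1587-17 minus Cat100-6 in acid soil (horizontal), of every probe set of each gene list, where filled points passed, open points did not and bars are medians. Aquaporins had 13 of 38 probe sets higher and 3 lower, and starch and sucrose genes had 1 of 36 higher and 10 lower. Ribosomal proteins had 1 of 26 passing, and 24% of all probe sets passed. Under the hybridization control scaling aquaporins turned to 6 higher and 10 lower, against 525 higher and 7493 lower of all 17621 probe sets.

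The same contrast in control soil, on other arrays, gave the line difference where aluminium was not detectable. In control soil 9071 probe sets passed (51.5%), 4094 higher (23.2%) and 4977 lower (28.2%), and the arrays of the lines lay apart at 55.5% of probe sets. With a minimum of 1 log2 unit the shares were 10.9% higher and 8.56% lower. Of the 4223 probe sets called in acid soil, 3054 were called in the same direction in control soil, which is 72.3% of the acid soil calls and 33.7% of the control soil calls, and 74 were called in the opposite direction. Across probe sets the 2 differences correlated at 0.68 (0.60 without S1587-17 control soil replicate 3), given as a description since all probe sets share the same arrays. Lhcb5-2, ZmPIP2-2, pdc2 and prpo1 differed by 4.82, 4.05, -5.39 and -4.81 in control soil.

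**Figure D4:**
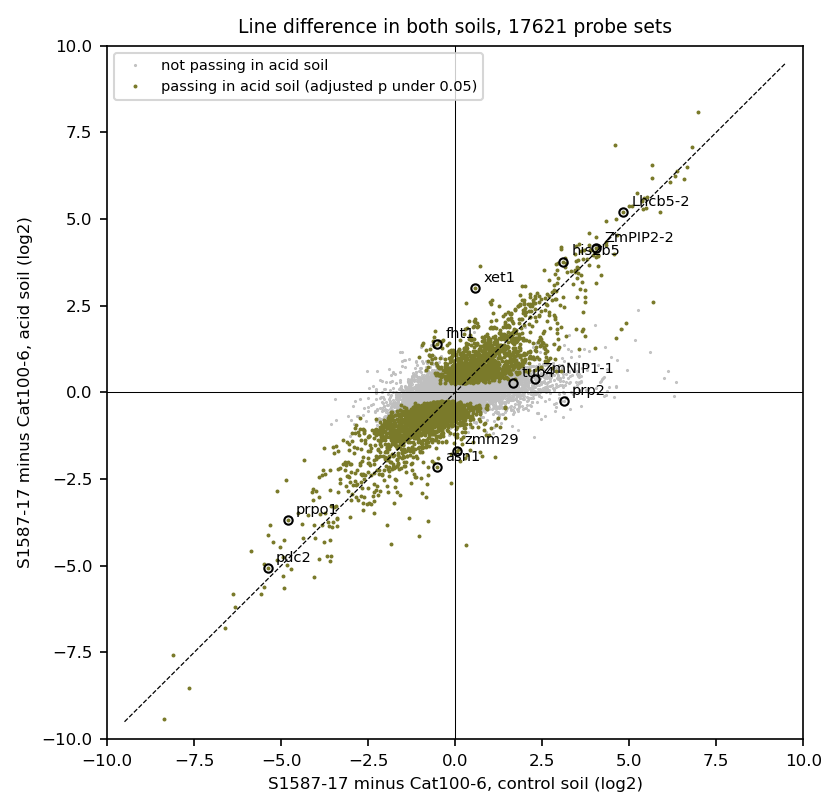
Log2 difference between lines (S1587-17 minus Cat100-6) in acid soil (vertical) against that in control soil (horizontal) for every probe set, with darker points for those that passed in acid soil. Lhcb5-2, with 5.21 in acid soil and 4.82 in control soil, and pdc2, with -5.07 in acid soil and -5.39 in control soil, lie near the line of equality.

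The difference between the 2 line gaps was tested directly. It passed at 2588 probe sets (14.7%), with the acid soil gap the higher at 5.92% and the lower at 8.76% of all probe sets, or 2.53% and 5.01% with a minimum of 1 log2 unit. The 1044 higher and 1544 lower calls became 179 and 2142 under the hybridization control scaling, 1745 and 1365 with array medians subtracted, and 4293 and 3627 without S1587-17 control soil replicate 3, so neither direction prevailed under every setting. By size, the gap was smaller in acid soil at 2179 of the 2588 and larger at 409. Of the acid soil calls, 239 did not pass in control soil and passed the test between soils, and of the control soil calls, 1850 did so the other way round. Counts within gene lists also differed between soils, where 51.5% of all probe sets passed in control soil and 24% in acid soil. Heat shock proteins and chaperones were higher in S1587-17 at 25 of 38 probe sets and lower at 3 in control soil, against 5 higher and 6 lower in acid soil (1 higher and 13 lower under the hybridization control scaling), and the gap differed between soils, being lower in acid soil, at 20. Ribosomal proteins were higher at 20 of 26 probe sets in control soil and at 1 in acid soil (0 higher and 2 lower under the hybridization control scaling), and the gap was lower in acid soil at 14. These between-soil list counts were not tested with single arrays left out, where the count over all probe sets ranged from 967 to 7920. Of the named members, the ribosomal gene ec2e lost its between-soil call in 10 of 12 omissions, and the chaperone list gene pdi4 in 1. Within acid soil, the small heat shock gene hsp18f (-1.30 ± 0.16) and hsp101, a disaggregating chaperone gene (-0.63 ± 0.14), were lower. Another small heat shock gene, hsp18c, was higher by 0.52 (limma adjusted p = 0.00529), and pdi4, a protein disulfide isomerase gene, by 1.05 ± 0.17. The pdi4 call in acid soil was lost under the hybridization control scaling (0.57, adjusted p = 0.064), and so was that of hsp18c (0.030).

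Other genes separated the lines in acid soil and not in control soil. The MADS-box gene zmm29 had 4.30, 4.05 and 4.35 in S1587-17 acid soil, against 6.15, 5.80 and 5.79 in Cat100-6 acid soil. In control soil it had 4.46, 4.23 and 4.31 in S1587-17 and 4.45, 4.43 and 4.01 in Cat100-6, where the lines overlapped. The line gap differed between soils by -1.72 ± 0.21 (adjusted p = 0.00132). For asn1 the gap differed by -1.64 ± 0.37 (adjusted p = 0.0189), with 8.95, 9.33 and 9.29 in S1587-17 control soil and 10.35, 9.00 and 9.81 in Cat100-6 control soil. The reverse was seen in prp2, which had 12.34, 12.25 and 12.39 in S1587-17 acid soil, against 12.86, 12.46 and 12.44 in Cat100-6 acid soil. In control soil prp2 had 12.45, 11.98 and 11.19 in S1587-17, against 8.98, 8.69 and 8.59 in Cat100-6, and the gap differed by -3.38 ± 0.36 (adjusted p = 0.000682). ZmNIP1-1 and the β-tubulin gene tub4 had the same pattern, with gaps of 0.37 and 0.27 in acid soil and 2.28 and 1.66 in control soil.

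**Figure D5:**
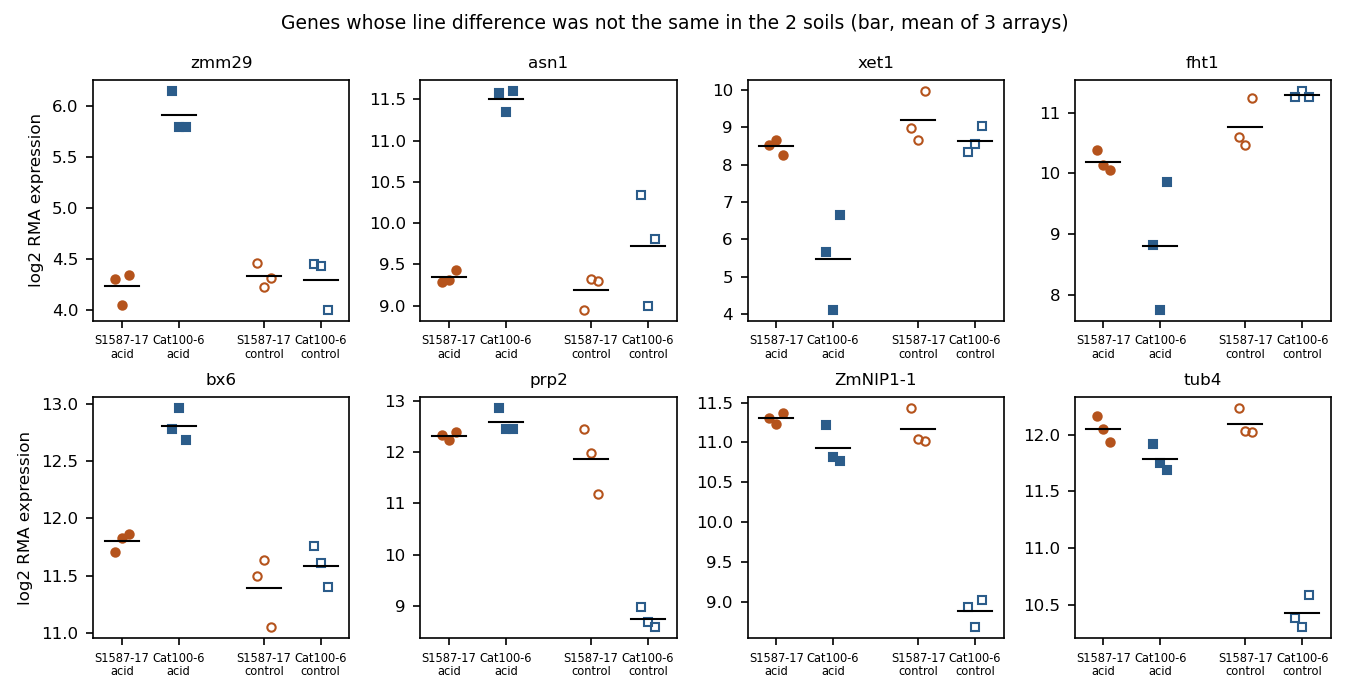
Log2 RMA expression (vertical) on every array of 8 genes picked for a line difference that was not the same in both soils, with filled points for acid soil, open points for control soil, circles for S1587-17, squares for Cat100-6 and bars at the mean of 3 arrays. In zmm29, asn1 and bx6 the Cat100-6 acid soil arrays stand above the other groups, and in prp2, ZmNIP1-1 and tub4 the Cat100-6 control soil arrays stand below them.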

How the data were processed

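The values are the log2 expression levels deposited by the authors. The summary method was RMA, per the submitters' processing notes, in a version not given in the sources used here. RMA gives no detection calls and compresses differences of dim probe sets, and the number of arrays limits the precision. The control probe sets were left out, and 17621 probe sets were tested.

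All 12 arrays were fitted in limma 3.58.1 (R 4.3.3) with a mean per group (8 residual degrees of freedom) and empirical Bayes moderation. P-values were adjusted by Benjamini-Hochberg over 17621 probe sets, with a threshold of 0.05. The steps were tested on simulated data. Figures used matplotlib 3.10.9.

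Names came from the platform annotation of 1452 probe sets, updated through the RefSeq table (B73 NAM 5.0), where 1060 of 1108 genes were found. Named genes are, at their brightest probe set, the 15 highest and 15 lowest that passed with arrays apart, up to 4 members per list with the lowest p, and the 8 with the lowest p for the difference between soils. A further 26 genes given with values were picked after their values were seen. Symbols of 1 character are not printed. Members, lists and tests were chosen with earlier results of these data known, and the lists were edited by symbol, with MADS-box genes added, after the files were seen.

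The hybridization controls were the 15 probe sets for the 3′ and middle regions, as listed for this alternative. Scaling on all 27, or on the 9 of 1 design, was added after values were seen, and both had been tried before the listed set was run. The 3′ to 5′ measure uses the listed 7 pairs of maize control genes. Versions with 5 pairs (0.32 in S1587-17 acid soil and 0.77 in Cat100-6 acid soil) and with 14 pairs that include bacterial spikes (0.57 in S1587-17 acid soil and 0.97 in Cat100-6 acid soil) had been computed before it.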

Additional observations from a re-analysis of the deposited data

Results flagged for a closer look

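In 23 named genes the gap between lines differed between the 2 soils (limma, adjusted p under 0.05). The gap in acid soil minus that in control soil was negative in 15: LOC542763 (-1.87), prp2 (-3.38), ZmNIP1-1 (-1.91), tub4 (-1.40), annexin2 (-1.35), x34.3 (-1.61), zmm29 (-1.72), Agp2 (-1.42), tub5 (-1.01), pdi4 (-1.10), asn1 (-1.64), ec2e (-1.08), bx6 (-0.82), tua4 (-0.40) and ltk2 (-0.87). It was positive in NIT2 (1.06), GBSSIIa (0.87), zrp4 (1.81), pht1 (1.46), glb3 (0.47), ZmPIP2-3 (0.87), fht1 (1.91) and xet1 (2.44). The sign held in all 23 when each of 12 arrays was left out in turn, and the call held throughout in 12 genes, while 11 lost it in at least 1 omission. Calls that were lost most often, in 9 or 10 of 12 omissions, were those of ltk2, bx6, tua4, pht1, glb3, ec2e, fht1, ZmPIP2-3 and xet1. Under the hybridization control scaling GBSSIIa, NIT2, glb3 and ZmPIP2-3 did not pass (adjusted p = 0.262, 0.0788, 0.898 and 0.417). That scaling moves these values down too, so none of the negative ones could change sign under it.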

How the results depend on the processing

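The 4223 line differences in acid soil became 8018, 7812 and 6866 when arrays were set to the same mean of the listed hybridization controls, of all of them and of those of 1 design, and 1221 with a minimum of 1 log2 unit. Over single arrays left out the acid soil count lay between 2923 and 5932, the highest without S1587-17 control soil replicate 3. In control soil 9071 became 3430 with that minimum, and 7455 to 10804 over single arrays left out. For the gap between soils 2588 became 7381 with array weights, 1328 with the minimum, and 967 to 7920 over single arrays left out, with 7920 without S1587-17 control soil replicate 3. Same-numbered arrays of the 2 lines in acid soil deviated with correlations of 0.19, -0.05 and -0.23, and differently numbered ones with -0.30 to 0.33. With 3 arrays a group these values cannot decide whether the numbers pair the arrays. With the replicate block in all 12 arrays 4444 probe sets passed in acid soil, and 3902 with it in the 6 acid soil arrays.

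Of 86 named genes that passed, 56 kept direction and call under every alternative run. These genes were chosen by size or p-value in the same data, and the share kept among all called probe sets was not computed. Negative differences only grow under the hybridization control scaling, so their direction was fixed there in advance. Of 1953 values under alternatives, 158 lost the call and 15 changed sign, all 15 under hybridization control scaling. With the listed set, all controls and 1 design these were RPL10 (-0.11, -0.10 and -0.079), annexin2 (-0.12, -0.11 and -0.084), nfd102 (-0.17, -0.17 and -0.14), igl1 (-0.16, -0.15 and -0.12) and glb3 (-0.16, -0.15 and -0.13). Of 32 passing values of the 26 genes outside the rule, 14 kept direction and call under every alternative run. In at least 1 single-array omission 13 were lost, and 10, all positive, were lost under hybridization control scaling. Of these, 2 changed sign: ZmPIP2-1 (-0.030 with the listed set, -0.022 with all controls) and bt1 (-0.237, -0.23 and -0.204). These sign changes follow from subtracting a single value from each array, which turns any small enough positive difference negative. Why the control levels differed between the groups was not tested.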

Other observations

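Of 30 probe sets for abscisic acid, jasmonate and ethylene genes, 6 were higher and 4 lower in S1587-17 acid soil than in Cat100-6 acid soil, 33.3% called against 24% of all probe sets, or 1 higher and 13 lower under the hybridization control scaling. AO1, an aldehyde oxidase gene, had 7.36, 7.24 and 7.38 in S1587-17 acid soil, against 8.52, 8.41 and 8.39 in Cat100-6 acid soil (limma adjusted p = 7.86e-05). The allene oxide cyclase gene aoc1, of jasmonate synthesis, was higher by 1.23 ± 0.15 at 1 probe set and did not pass at its brighter one (-0.26, adjusted p = 0.170). The dehydrin gene dhn2 was higher at 3 probe sets, by 0.85, 0.56 and 0.49, none of which passed under that scaling. The ethylene receptor gene etr2 was lower by 0.53 at its brighter probe set, and its other one did not pass.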
